A study of Mus musculus with 103 samples.

Results

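The genes described here are those of the proteasome, the large protease that degrades proteins tagged with ubiquitin. They were chosen by symbol: every gene with an Ensembl ID whose symbol is Psm, a letter from a to g, a number and at most 1 further letter. This gave 49 of the 43283 genes with such an ID in the table of bulk libraries, and the same 49 of 43282 genes in the table of single-cell wells. Of these, 14 encode the constitutive subunits of the core particle, 3 the immune catalytic subunits (Psmb8, Psmb9 and Psmb10), 2 core subunits of other tissues, 9 the base and 8 the lid of the regulatory cap. A further 7 encode assembly chaperones, 5 encode subunits of alternative activators and 1 encodes an inhibitor. The rule left out 5 other Psm symbols, Psmc3ip and 4 pseudogenes.

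The core particle is a barrel of stacked rings, with the alpha subunits forming the gate and the beta subunits carrying the active sites inside. The cap binds ubiquitin chains. ATPases of its base unfold the substrate and thread it into the barrel, while the lid removes the ubiquitin. Under interferon, Psmb8, Psmb9 and Psmb10 are built into new particles in place of Psmb5, Psmb6 and Psmb7, which shifts the peptides made toward those loaded onto MHC class I. In muscle the proteasome is the main route for breaking down contractile proteins, and mouse muscle stem cells that lose the ATPase Psmc4 are not maintained.

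The RNA came from muscle stem cells of untreated C57BL/6 mice, sequenced as bulk libraries and as single-cell wells. The bulk libraries came from 3 young mice (3 months in the age field of the labels, 2 months in their description), a pair of middle-aged animals (12 and 13 months) and 3 old ones (24 months). The wells came from 1 old mouse (24 months, 31 wells) and 1 young mouse (3 months, 64 wells). The labels give muscle stem cells as the source, the design text calls the cells myoblasts, and the labels describe a culture medium with FGF-2 but do not place the RNA isolation before or after it. Each bulk library was amplified from 5000 to 10000 cells, and the labels name no sort gate. In such samples, fewer cells of a type and less RNA per cell cannot be told apart.

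All 9 muscle stem cell markers examined were present in bulk, Pax7 among them with 308, 316 and 248 TPM in young libraries, 231 and 127 TPM in middle-aged ones and 219, 246 and 185 TPM in old ones. TPM is a length-corrected share of the transcripts in a library, so levels of different genes can be set side by side, but the depth behind a value is unknown. Between 12849 and 17114 genes reached 1 TPM per library. Values of 0 were common, with 20 of the 49 proteasome genes at 0 in 1 library or more. Among genes with a mean of 1 TPM or more this held for 19 of 48 proteasome genes (39.6%) and for 66.1% of all 22492 genes. From a mean of 5 TPM it held for 15 of 44 (34.1%) and for 39.1% of all 11778 genes. From a mean of 20 TPM it held for 4 of 28 proteasome genes (14.3%), although every cell needs most of them, and for 11.6% of all 4393 genes. A 0 is therefore given as listed and not read as absence. Young libraries had 8, 12 and 6 proteasome genes listed at 0, middle-aged ones 6 and 7, and old ones 6, 3 and 3. The part of these zeros in the differences between ages was not tested.

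**Figure D1:**
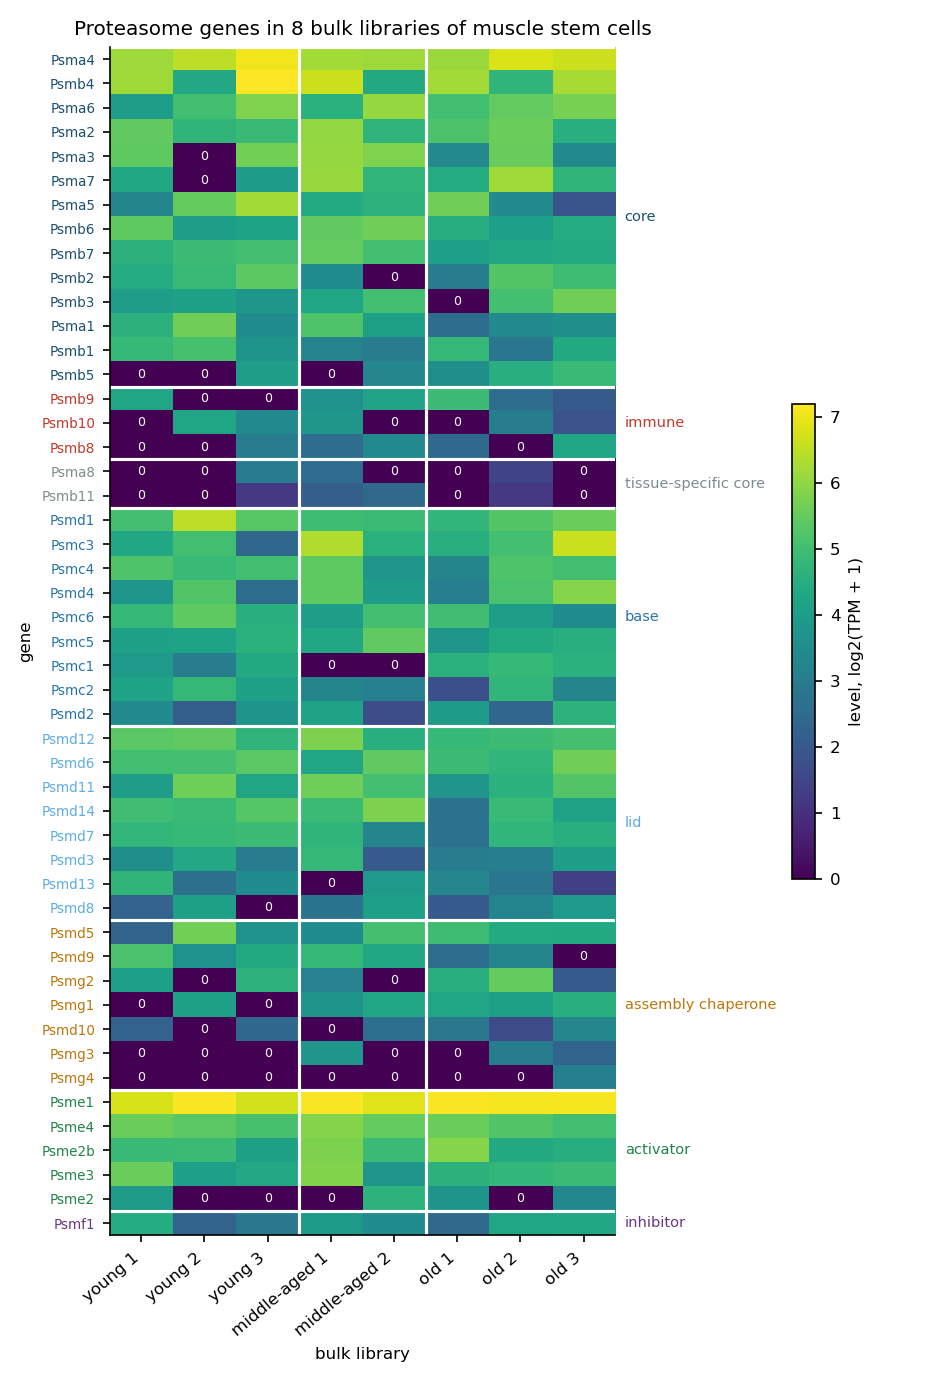
Level of each of the 49 proteasome genes (rows, grouped by role and ordered by mean level) in each bulk library (columns, by age), as log2(TPM + 1); a printed 0 marks a gene listed at 0. Psme1 is bright in all 8 libraries, while each immune gene has 0 in 2 or 3 libraries and 6 of the 7 assembly chaperones have 0 in at least 1.

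The proteasome genes as a set had much the same summed level at each age. Their sum was 1133, 1209 and 1247 TPM in young libraries, 1468 and 1129 TPM in middle-aged ones and 1027, 1236 and 1319 TPM in old ones. The ranges of the ages overlap, and the lowest and highest of the 8 libraries differ by 1.43-fold. The levels of single genes spread more widely, from a mean over the 8 libraries of 128 TPM for Psme1 to 0.954 TPM for Psmg4, the assembly chaperone at the low end. Of the 49 genes, 48 had a mean of at least 1 TPM and entered the test; Psmg4 did not.

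Single genes were compared between ages with limma on log2(TPM + 1), fitted across 22492 genes, with p-values adjusted over all of them by the Benjamini-Hochberg method. A log2 difference on this scale understates the change of a low gene, and higher and lower in counts of genes refer to its sign. For 4 proteasome genes, Psma3, Psmb3, Psmd6 and Psme3, the means in TPM lie the other way round. In old against young libraries, 0 of the 48 proteasome genes passed an adjusted p of 0.05, as did 0.0% of all genes tested. At an unadjusted p under 0.05 there were 4 of 48 proteasome genes (8.33%), against 5.89% of all genes: Psma7, Psmb5 and Psmg1 were higher and Psmd9 was lower in old libraries. This count was 1 without middle-aged library 1, middle-aged library 2 or old library 3, and 2 without young library 2 or young library 3. No share of all genes was computed for the fits without a library. For 2 genes, Psma7 and Psmc1, all old values were above all young values (4.17%, against 5.85% of all genes). For 4 genes, Psmb7, Psmd7, Psmd14 and Psmd9, all old values were below all young values (8.33%, against 4.16%). The median difference over the 48 genes was -0.03, with 22 higher and 26 lower in old, beside a median of 0.00 over all genes, of which 54.2% were higher. Of the 31 constitutive genes of core, base and lid, 10 were higher and 21 lower in old libraries, and the median difference was -0.21. The median of the 14 core genes alone was -0.20, and it was 0.12 without old library 1.

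**Figure D2:**
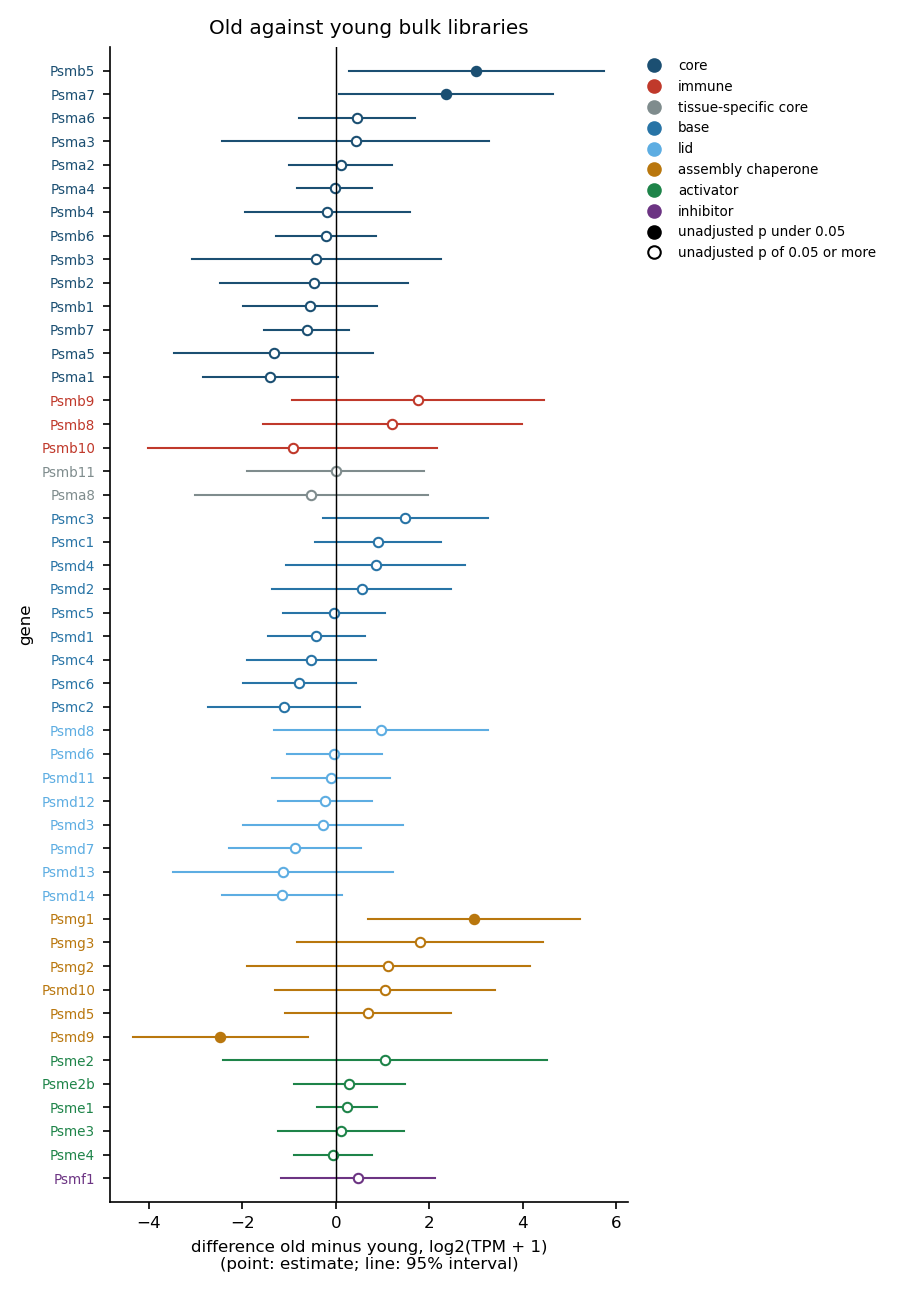
Difference of each of the 48 tested proteasome genes, old minus young, in log2(TPM + 1), with its 95% interval from limma; colours give the role and filled points an unadjusted p under 0.05. Most intervals span 0, and the 4 filled points are Psmb5, Psma7, Psmg1 and Psmd9.

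The 7 alpha subunits form the outer rings of the core and its gate, and 4 had a difference above 0 and 3 below, Psma3 being among the 4 by its own row alone. Psma4, the highest core gene by its own row with a mean of 89.0 TPM, had 68.8, 110.5 and 101 TPM in old libraries, against 69.5, 88.1 and 132 TPM in young libraries. Its ranges overlap and its difference was near 0 (log2 difference -0.03, SE 0.36, 95% interval -0.82 to 0.77). Psma7 had 20.98, 70.8 and 25.4 TPM in old libraries, against 19.1, 0 and 14.4 TPM in young libraries. Each old value exceeds each young value, and old library 2 stands far above the rest of its group. The difference was large but missed the threshold in limma (log2 difference 2.36, SE 1.04, 95% interval 0.06 to 4.65, adjusted p = 0.833). Psma1, chosen after its values were seen, had 4.94, 9.96 and 10.9 TPM in old libraries, against 23.9, 49.3 and 10.4 TPM in young libraries (log2 difference -1.40, SE 0.65, 95% interval -2.84 to 0.04; limma adjusted p = 0.833). Only the highest old library overlaps the lowest young one.

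For Psma3, an alpha subunit chosen here for its copy, the level cannot be read from its own row. The gene Gm13835 shares 685 bases with it at 100% identity, and most of the summed level was listed under that symbol. Psma3 itself had 9.44, 45.2 and 9.96 TPM in old libraries, against 42.04, 0 and 49.9 TPM in young libraries, while Gm13835 had 91.1, 158 and 129 TPM in old libraries, against 195, 113 and 178 TPM in young libraries. The 2 symbols together gave 101, 203 and 139 TPM in old libraries, against 237, 113 and 228 TPM in young libraries. The 0 of young library 2 is gone in the sum, the mean over all 8 libraries is 189.8 TPM and so above that of Psme1, and the ages overlap (log2 difference -0.36, SE 0.41). Likewise Psma5 gave 90.6, 26.3 and 39.5 TPM in old libraries, against 74.2, 86.4 and 111 TPM in young libraries, once Gm8394 and Gm12989 were added (log2 difference -0.96, SE 0.47; limma adjusted p = 0.836). In all, 16 of the 49 genes have a stretch of at least 75 bases, the read length, at 97% identity or more in another gene.

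All 4 beta subunits without an active site had a difference below 0 (median -0.44), none with an unadjusted p under 0.05. For Psmb3 the sign rests on a listed 0 in old library 1, since its mean was 27.1 TPM in old and 14.9 TPM in young libraries. For Psmb2, one of these, the old libraries had 7.27, 38.05 and 30.1 TPM, against 20.6, 28.2 and 40.7 TPM in the young libraries, and the ranges overlap (log2 difference -0.47, SE 0.91, 95% interval -2.47 to 1.54). The middle-aged libraries had 10.4 and 0 TPM, below every young value.

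The 3 constitutive catalytic subunits had differences of either sign. Psmb5, which carries the chymotrypsin-like site and whose gene lies on chromosome 14, 54614119 to 54618022, minus strand (mm10, GENCODE vM21), had 11.1, 22.4 and 28.8 TPM in old libraries, against 0, 0 and 15.3 TPM in young libraries. It was found in every old library but listed at 0 in 2 of 3 young ones, and the only young value above 0 lies inside the old range. The difference was 3.01 log2 units (SE 1.24, limma adjusted p = 0.815). Gm3375 shares 796 bases with Psmb5 at 98.9% identity and has no row among the bulk values, so it could not be added. Its part in the zeros of Psmb5 was not tested. Psmb6, with the caspase-like site, had 21.4, 15.8 and 20.9 TPM in old libraries, against 42.1, 15.5 and 17.1 TPM in young libraries. Its ranges overlap, and young library 1 alone is high (log2 difference -0.21, SE 0.49, 95% interval -1.29 to 0.86). Psmb7, with the trypsin-like site, had 15.8, 18.5 and 20.3 TPM in old libraries, against 23.8, 29.5 and 32.4 TPM in young libraries. Every old value lies below every young value (log2 difference -0.62, SE 0.41, 95% interval -1.53 to 0.29; limma adjusted p = 0.839). Nek6 runs antisense to Psmb7 over 255 bases, and with the strandedness not given, reads over that stretch cannot be told apart.

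The immune subunits were low at every age, with means over the 8 libraries of 10.7 TPM for Psmb9, 6.28 TPM for Psmb10 and 5.54 TPM for Psmb8, and each was listed at 0 in 2 or 3 of the libraries. Psmb8, the immune partner of Psmb5 (chromosome 17, 34197721 to 34201454, plus strand), had 4.48, 0 and 17.9 TPM in old libraries, against 0, 0 and 7.32 TPM in young libraries. High and low values occur in both groups (log2 difference 1.21, SE 1.25, 95% interval -1.55 to 3.97). Psmb9, the partner of Psmb6 (chromosome 17, 34181987 to 34187764, minus strand), had 29.9, 4.82 and 3.14 TPM in old libraries, against 18.2, 0 and 0 TPM in young libraries. It was found in every old library, but only old library 1 exceeds young library 1 (log2 difference 1.76, SE 1.22, 95% interval -0.93 to 4.45). Psmb10, the partner of Psmb7 (chromosome 8, 105935735 to 105938444, minus strand), had 0, 7.14 and 2.60 TPM in old libraries, against 0, 17.7 and 9.72 TPM in young libraries. Here young library 2 is the highest and both groups include a 0 (log2 difference -0.93, SE 1.39, 95% interval -4.01 to 2.16). The adjusted p from limma was 0.866 for Psmb8, 0.839 for Psmb9 and 0.912 for Psmb10, and each of their intervals includes 0. In the middle-aged libraries the levels were 4.92 and 9.74 TPM for Psmb8, 11.8 and 17.4 TPM for Psmb9 and 13.1 and 0 TPM for Psmb10.

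Summed over the 3 genes, the immune level was above 0 in every library. It was 34.4, 11.96 and 23.6 TPM in old libraries, against 18.2, 17.7 and 17.04 TPM in young libraries. The 3 young sums lie close together, and the old sums spread on both sides of them. The middle-aged sums were 29.7 and 27.1 TPM. As a share of the TPM of all 6 catalytic genes, the immune genes took 41.6, 17.4 and 25.2% in old libraries, against 21.6, 28.2 and 20.8% in young libraries. In middle-aged libraries they took 25.6 and 23%. Listed zeros enter these shares as 0: Psmb5 in young libraries 1 and 2 and middle-aged library 1, and each immune gene in 2 or 3 libraries. The part of these zeros in the shares was not tested. The mean share was 23.6 ± 4.07% in young (SD, n = 3), 24.3 ± 1.83% in middle-aged (SD, n = 2) and 28.1 ± 12.3% in old libraries (SD, n = 3). The old mean rests on old library 1 and is 21.3% without it. With 3 libraries against 3 an exact two-sided permutation test cannot go below p = 0.1, and the share was not tested. Leukocytes carry immunoproteasomes: their 13 markers summed to 22.5 to 49.7 TPM in young libraries, 49.6 to 111 TPM in middle-aged ones and 12.5 to 32.1 TPM in old ones, with Cd52 and Tyrobp at 0 in all 8. Ptprc was above 0 in all 8, with 5.38, 10.9 and 25.6 TPM in young libraries, 4.79 and 4.25 TPM in middle-aged ones and 5.30, 7.58 and 3.18 TPM in old ones. The rest were at 0 in some libraries. The part of leukocytes in the immune levels was not tested.

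**Figure D3:**
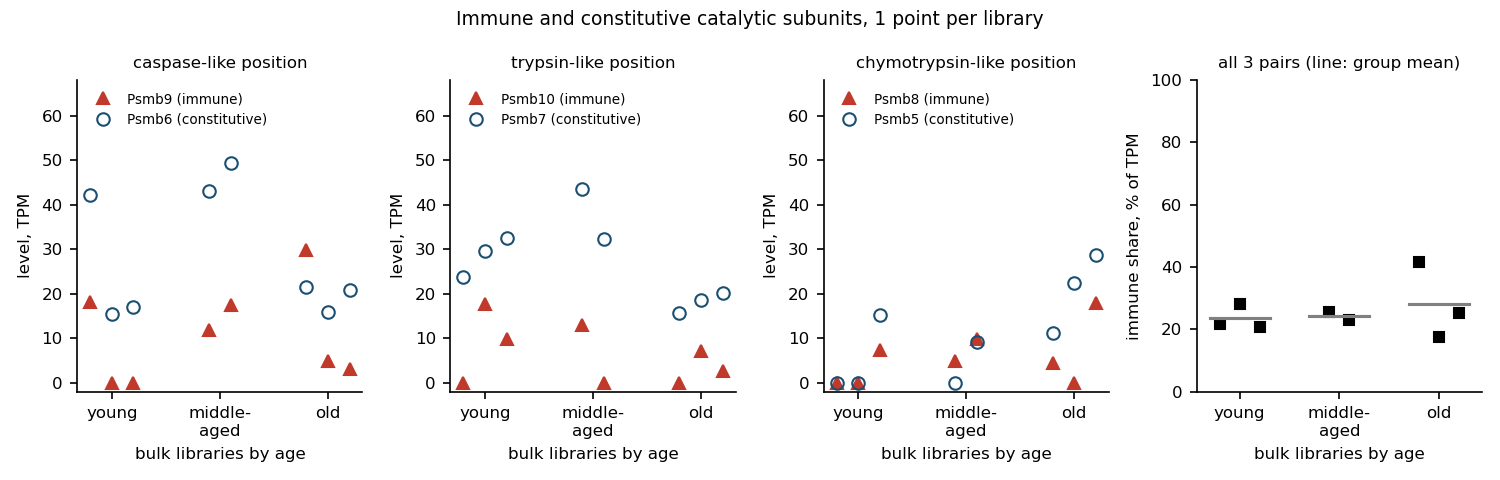
Level in TPM of each immune catalytic gene (triangles) and the constitutive gene it replaces (open circles) in each bulk library, by age, and, in the last panel, the immune share of the summed TPM of the 6 genes (squares, with the group mean as a line). Psmb5 is at 0 in 2 young libraries and above 10 TPM in all 3 old ones, and the immune share lies between 17.4 and 41.6% with no gap between ages.

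The start regions of these genes were read for short motifs of the factors that control them. Nfe2l1 and Nfe2l2 bind antioxidant response elements, here searched as TGACNNNGC, and TTCNNNGAA is a motif of interferon response; both strands were searched. RefSeq (GRCm38.p6) gave 44 windows from 250 bases before to 50 bases after a start for 41 of the 49 genes. TGACNNNGC was in 6 of 44 windows (13.6%), against 12.4% of all 32851 windows: those of Psmb5, Psmb6, Psmc6, Psmd9, Psmd12 and Psme4. TTCNNNGAA was in 3 of 44 windows (6.82%), against 8.30% of all: those of Psmb8, Psmg1 and Psmd2. Another interferon motif, a pair of GAAA repeats spaced by any 2 bases, was in 5 of 44 windows (11.4%), against 3.44% of all: those of Psme1, Psmd9, Psmg4, Psmd4 and Psmb3, and of 0 of 3 immune genes. A match is no binding site, and a window without one says nothing about the factor. Shown are the bases ahead of the first annotated exon for both constitutive catalytic genes with a match (chr14:54618023-54618245, minus strand, and chr11:70525107-70525366, plus strand), with TGACNNNGC in capitals. For Psmd9, likewise marked, they are the bases ahead of the first exon base within its window (chr5:123227940-123228189, plus strand). For Psmb8, 30 bases around the match are shown (chr17:34198088-34198117, plus strand), with TTCNNNGAA in capitals. In GENCODE vM21 the gene spans 123169413 to 123250131 for Psmd9 and 34197721 to 34201454 for Psmb8. The stretches shown for Psmd9 and Psmb8 thus lie inside the annotated gene, past its listed start.
Psmb5: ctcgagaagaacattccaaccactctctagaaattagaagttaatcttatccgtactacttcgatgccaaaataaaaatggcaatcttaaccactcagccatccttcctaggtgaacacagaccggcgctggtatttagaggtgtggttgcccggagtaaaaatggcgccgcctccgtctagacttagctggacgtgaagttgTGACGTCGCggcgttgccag
Psmb6: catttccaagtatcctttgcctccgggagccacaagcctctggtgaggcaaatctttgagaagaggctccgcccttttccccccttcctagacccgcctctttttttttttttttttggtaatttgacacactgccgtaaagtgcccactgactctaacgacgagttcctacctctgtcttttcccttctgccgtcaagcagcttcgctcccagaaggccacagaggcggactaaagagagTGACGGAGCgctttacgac
Psmd9: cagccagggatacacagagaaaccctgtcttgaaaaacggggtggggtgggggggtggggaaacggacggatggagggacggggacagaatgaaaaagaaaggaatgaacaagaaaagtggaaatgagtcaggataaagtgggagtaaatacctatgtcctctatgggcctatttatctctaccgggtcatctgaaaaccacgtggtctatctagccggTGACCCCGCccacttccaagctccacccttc
Psmb8: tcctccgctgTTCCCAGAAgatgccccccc
Counted from the RefSeq start, the match begins at base -47 in Psmb5, -9 in Psmb6, -31 in Psmd9 and -97 in Psmb8. Psmb5 and Psmb6 both have a match close to the start, and Psmb7 had no window. The part of this motif in their differences between ages was not tested.

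The base of the cap holds 6 ATPases and, among these genes, 3 other subunits. Old libraries were higher for 4 of the 9 base genes and lower for 5, with a median difference of -0.05. Psmd1, a scaffold and the highest base gene, had 25.6, 38 and 47.3 TPM in old libraries, against 32.3, 88.2 and 39.03 TPM in young libraries. Young library 2 is the highest and the rest overlap (log2 difference -0.42, SE 0.47, 95% interval -1.46 to 0.62). Psmd2, the other scaffold and the lowest base gene, had 14.9, 4.19 and 24.3 TPM in old libraries, against 10.03, 3.50 and 12.4 TPM in young libraries, with overlapping ranges (log2 difference 0.55, SE 0.86, 95% interval -1.36 to 2.46). Psmc1, an ATPase, had 23.1, 27.2 and 23.3 TPM in old libraries, against 13.9, 7.23 and 19.8 TPM in young libraries (log2 difference 0.90, SE 0.61, 95% interval -0.45 to 2.24; limma adjusted p = 0.839). Each old value lies above each young value, and the old values are the more even.

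Psmc1 also stood apart in the middle-aged libraries, where it was listed at 0 in both. Its limma p was 0.000205 in middle-aged against young libraries (adjusted 0.196) and 3.4e-05 in old against middle-aged libraries (adjusted 0.191), the smallest of any proteasome gene in either comparison. Leaving out either middle-aged library leaves 1 in that group, so no p-value is given for those fits. No fold is given, since a listed 0 sets no level.

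The lid leaned toward lower values in old libraries, with 7 of 8 genes lower, beside 10297 of all 22492 genes tested. The median lid difference was -0.25, although no lid gene had an unadjusted p under 0.05. Psmd6 counts among the 7 with a difference of -0.03, but its mean was 34.9 TPM in old and 34.5 TPM in young libraries. Psmd14, the enzyme that cuts ubiquitin off the substrate, had 5.68, 28.3 and 16.7 TPM in old libraries, against 30.8, 28.4 and 38.9 TPM in young libraries. The highest old value falls just short of the lowest young one (log2 difference -1.14, SE 0.58, 95% interval -2.42 to 0.13; limma adjusted p = 0.839). Psmd7, its partner in the lid, had 5.45, 25.6 and 21.97 TPM in old libraries, against 26.2, 27.3 and 29.9 TPM in young libraries. The young values are nearly equal and the old ones lie below them, old library 1 by far (log2 difference -0.86, SE 0.64, 95% interval -2.27 to 0.54). Both were named after their values were seen, because their groups do not overlap. The summed lid level was 100.3, 155 and 188 TPM in old libraries, against 185, 219.9 and 169 TPM in young libraries, so old library 1 was the lowest and the other old sums lay near the young ones. Old library 1 also had the highest share of TPM from mitochondrially encoded genes, 46.9%, against 33.1 to 42.6% in the other libraries. The median lid difference was -0.13 without that library. Psmd12, the highest lid gene, had 27.3, 29.8 and 32.6 TPM in old libraries, against 40.5, 42.8 and 24.6 TPM in young libraries (log2 difference -0.22, SE 0.45, 95% interval -1.23 to 0.78), and Psmd8, the lowest, had 3.19, 8.58 and 14.1 TPM in old libraries, against 3.85, 15.96 and 0 TPM in young libraries (log2 difference 0.96, SE 1.03, 95% interval -1.33 to 3.25). Both overlap between the ages, and Psmd8 is the 1 lid gene with a difference above 0.

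The assembly chaperones spread widely, with differences of -2.47 for Psmd9 to 2.95 for Psmg1. Psmg1, which with Psmg2 builds the alpha ring, had 18.4, 16.2 and 23 TPM in old libraries, against 0, 16.4 and 0 TPM in young libraries. Old values are even, and the 1 young value above 0 falls inside their range, next to the 2 listed at 0. The difference was 2.95 log2 units (SE 1.02, limma adjusted p = 0.749). Psmd9, a chaperone of base assembly, had 4.81, 8.65 and 0 TPM in old libraries, against 33.9, 11.9 and 19.98 TPM in young libraries. Every old value lies below every young value (log2 difference -2.47, SE 0.84, 95% interval -4.33 to -0.60; limma adjusted p = 0.732). Old library 3 is the one listed at 0. The middle-aged levels, 26.8 and 18.5 TPM, lie within the young range.

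Of the 6 assembly chaperones tested, 5 were higher and 1 lower in old libraries, and the median difference was 1.09. All but Psmd5 were listed at 0 in at least 1 library. Psmd5, the highest of them and a chaperone of the base, had 30.3, 20.1 and 19.9 TPM in old libraries, against 3.98, 50.3 and 11.8 TPM in young libraries, with young values on both sides of the old ones (log2 difference 0.69, SE 0.80, 95% interval -1.08 to 2.47). Psmg2 had 21.9, 44.2 and 3.23 TPM in old libraries, against 15.9, 0 and 24.1 TPM in young libraries, which overlap (log2 difference 1.12, SE 1.37, 95% interval -1.90 to 4.15). Psmg4 was listed at 0 in every library but old library 3, at 7.63 TPM.

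The activators, caps that open the core without ubiquitin, held the most abundant and the steadiest gene of the set when each gene is read by its own row. Psme1, a subunit of the interferon-inducible activator PA28, had 141, 137 and 137 TPM in old libraries, against 109, 142 and 104 TPM in young libraries. It ranked first in mean level by single rows, though below Psma3 with its copy added (189.8 TPM). Its coefficient of variation over the 8 libraries, 12.6%, was the smallest of the 49 genes. The ages overlap, because young library 2 is the highest but one (log2 difference 0.24, SE 0.29, 95% interval -0.41 to 0.88; limma adjusted p = 0.884). The middle-aged libraries, at 142 and 115 TPM, fall in the same range.

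Psme2, the other subunit of that activator, had 12.3, 0 and 9.22 TPM in old libraries, against 14.2, 0 and 0 TPM in young libraries (log2 difference 1.05, SE 1.56, 95% interval -2.40 to 4.51). It is listed at 0 in both ages, and 794 of its bases match Psme2b at 99.4% identity. Psme2b, a copy, had 58.5, 19.7 and 21.6 TPM in old libraries, against 28.4, 29.1 and 16.1 TPM in young libraries (log2 difference 0.29, SE 0.53, 95% interval -0.89 to 1.47). Summed, the pair had 70.8, 19.7 and 30.9 TPM in old libraries, against 42.6, 29.1 and 16.1 TPM in young libraries. The middle-aged libraries had 53.99 and 53 TPM for the pair. No library remains at 0, old library 1 is the highest and the ages overlap (log2 difference 0.36, SE 0.54). Summed in this way Psme2 still stood below Psme1 in every library.

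Psme3, the nuclear relative of these subunits, had 23.8, 26.2 and 29.04 TPM in old libraries, against 46.5, 15.7 and 19.2 TPM in young libraries (log2 difference 0.11, SE 0.61, 95% interval -1.24 to 1.46). The old values are close together and sit inside the young range. Psme4, the subunit of the activator PA200, had 47.4, 36.7 and 31.8 TPM in old libraries, against 47.1, 39.9 and 33.2 TPM in young libraries (log2 difference -0.06, SE 0.38, 95% interval -0.89 to 0.78), again with overlap. Psmf1, an inhibitor of the core, had 4.67, 18.1 and 18.7 TPM in old libraries, against 20.8, 3.91 and 6.40 TPM in young libraries (log2 difference 0.48, SE 0.75, 95% interval -1.17 to 2.13). Low and high values occur in both ages.

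The tissue-specific core subunits were close to 0. Psma8, of the testis, had 0, 0 and 7.01 TPM in young libraries, 4.71 and 0 TPM in middle-aged ones and 0, 1.72 and 0 TPM in old ones. Psmb11, of the thymus cortex, had 0, 0 and 1.30 TPM in young libraries, 3.51 and 4.67 TPM in middle-aged ones and 0, 1.28 and 0 TPM in old ones. Both genes had a value above 0 in at least 1 library of each age.

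Middle-aged libraries gave no further call. In middle-aged against young libraries, 0 of 48 proteasome genes passed an adjusted p of 0.05, against 0.00445% of all genes (1 gene). At an unadjusted p under 0.05 there were 4 of 48 (8.33%), against 7.78% of all genes: Psma7 and Psmg1 were higher, Psmb2 and Psmc1 lower. Psma7 had 67.7 and 25.8 TPM and Psmg1 had 12.2 and 17.8 TPM in middle-aged libraries, so both genes were found in every middle-aged library, as in every old one. That comparison and the one of old against young libraries share the young libraries. In old against middle-aged libraries, 0 of 48 passed an adjusted p of 0.05, against 0.0% of all genes, and 4 of 48 (8.33%) had an unadjusted p under 0.05, against 6.19% of all genes: Psmb2 and Psmc1 were higher, Psmb6 and Psmd9 lower. Psmb6 had 21.4, 15.8 and 20.9 TPM in old libraries, against 42.96 and 49.4 TPM in middle-aged libraries, with every old value below (log2 difference -1.22, SE 0.54, 95% interval -2.42 to -0.02; limma adjusted p = 0.724). The median over all genes was 0.18 in middle-aged against young and -0.09 in old against middle-aged libraries.

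Factors that turn on proteasome genes were looked at beside the subunits. Nfe2l1, the transcription factor that raises all subunits together when the proteasome is inhibited, had 45.5, 90.2 and 46.03 TPM in old libraries, against 27.9, 13.3 and 5.26 TPM in young libraries. Every old value is above every young value, and the middle-aged values, 48.9 and 45.4 TPM, lie with the old ones. The difference was 2.09 log2 units (SE 0.58), with a limma adjusted p of 0.634. Nfe2l2, the oxidative stress factor, had 99.3, 96.2 and 74.04 TPM in old libraries, against 60.8, 59.3 and 43.9 TPM in young libraries, again without overlap (log2 difference 0.71, SE 0.33; limma adjusted p = 0.833). Of the 8 regulator genes examined, 4 were higher and 4 lower in old libraries, Nfe2l1 being the 1 with an unadjusted p under 0.05.

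Of 10 regulators of the immune subunits, 9 had a difference above 0 in old against young libraries (median 0.47), and 0 passed the adjusted threshold. Among the 9, Ifngr2 had a lower mean in old libraries, 9.17 TPM, against 9.5 TPM in young libraries. Irf1, an interferon-induced activator of Psmb8 and Psmb9, had 76.3, 53.6 and 52.9 TPM in old libraries, against 39.4, 20.6 and 22.5 TPM in young libraries. No old value overlaps a young one (log2 difference 1.16, SE 0.40; limma adjusted p = 0.738). Nlrc5, which drives MHC class I genes, was low, with 0, 0.390 and 6.94 TPM in old libraries, against 3.02, 1.44 and 0 TPM in young libraries. The middle-aged libraries had 12.8 and 0.940 TPM, the higher of them above every old and young value. Of 11 genes of MHC class I loading, 9 had a difference above 0 and 2 below (median 0.38). Among the 9, Tap1 and Tapbp had a lower mean TPM in old libraries.

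B2m, the light chain of MHC class I, had 509, 593 and 589 TPM in old libraries, against 261, 183 and 249 TPM in young libraries. The old values are tight and all above the young ones, the middle-aged values of 303 and 353 TPM lie between, and the unadjusted p was 0.000508 (log2 difference 1.30, SE 0.26; limma adjusted p = 0.501). Tap1, the peptide pump whose gene runs antisense to Psmb9 over 212 bases, had 4.01, 4.24 and 11.1 TPM in old libraries, against 1.60, 26.6 and 2.16 TPM in young libraries. Its ranges overlap, and the strandedness of the libraries is not given in the sources used here, so reads over that stretch cannot be told apart.

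Partners of the proteasome that carry no Psm symbol were balanced, with 8 of 15 higher and 7 lower in old libraries and a median difference of 0.04. Adrm1, a ubiquitin receptor of the base, had 21.6, 17.6 and 5.24 TPM in old libraries, against 0, 0 and 4.36 TPM in young libraries. Each old value is above each young one (log2 difference 2.98, SE 0.87; limma adjusted p = 0.638). Uchl5, a deubiquitinase that Adrm1 holds on the cap, had 19.4, 10.3 and 48.6 TPM in old libraries, against 70.6, 70.1 and 62.5 TPM in young libraries, with every old value below (log2 difference -1.61, SE 0.57; limma adjusted p = 0.763). So the receptor and the enzyme bound to it had differences of opposite sign, neither past the adjusted threshold. Pomp, the chaperone that matures the core, had 69.1, 59.7 and 56.5 TPM in old libraries, against 42.1, 155 and 90.9 TPM in young libraries, which overlap (log2 difference -0.45). Among 7 genes of ubiquitin supply, 4 were higher and 3 lower, and 7 of 7 tested genes of muscle wasting, such as the ligase Fbxo32, had higher values in old libraries (median difference 0.31), none with an unadjusted p under 0.05.

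Markers of other cells were measured in the same libraries. The 8 Schwann cell markers summed to 84.7 to 155 TPM in young libraries, 175 to 323 TPM in middle-aged ones and 417 to 1318 TPM in old ones; 8 of 8 were higher in old, 7 with an unadjusted p under 0.05, with a median difference of 2.61. Of 8 fibroblast markers, 6 were higher in old (Dcn, Mfap5 and Col1a2 with an unadjusted p under 0.05) and 2 lower (Col3a1 likewise), and they summed to 843 to 936 TPM in young libraries, 794 to 817 TPM in middle-aged ones and 922 to 1354 TPM in old ones. Of 6 endothelial markers tested, 5 were higher in old, Pecam1 with an unadjusted p under 0.05; Tie1 and Cldn5 were at 0 in all 8, and the 8 markers summed to 28.4 to 45.8 TPM in young libraries, 49.5 to 91.6 TPM in middle-aged ones and 43.4 to 67.99 TPM in old ones. Of the 9 muscle stem cell markers, 7 were lower in old, Chodl with an unadjusted p under 0.05. The part of these cells in the levels of proteasome genes, of Nfe2l1 and of B2m was not tested.

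The wells show which proteasome genes were found in 1 cell at a time. Each age is represented by 1 mouse, which leaves no replicates to test, and the old and young wells shared 0 of their first index sequences, so that age and index set cannot be told apart. The wells also differed in how many genes they held: the median number of genes at 1 TPM or more was 64 in old wells (range 3 to 2950) and 1854 in young wells (range 7 to 3621). Proteasome genes followed that number. An old well held a median of 0 of the 49 (at most 15, with none in 19 of 31 wells), and a young well a median of 10 (at most 26, with none in 8 of 64 wells). Among wells with at least 1000 genes, the median was 10 in the 7 old wells and 11.5 in the 54 young wells. Over wells of 1 age, the number of proteasome genes correlated with the number of genes found at r = 0.964 in the 31 old wells and r = 0.881 in the 64 young wells, which share the well's depth.

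**Figure D4:**
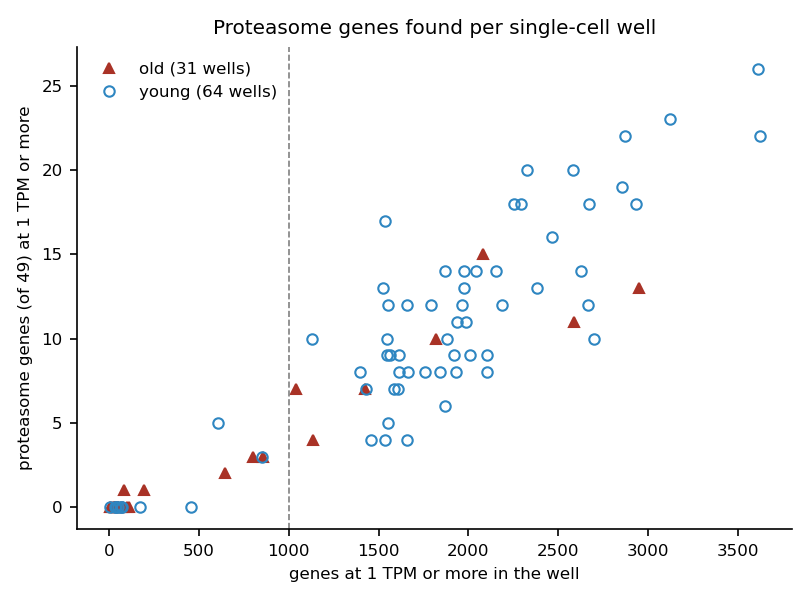
Number of the 49 proteasome genes at 1 TPM or more (vertical axis) against the number of all genes at 1 TPM or more (horizontal axis) in each old well (triangles) and young well (open circles); the dashed line marks 1000 genes. Most old wells lie at the lower left, and the 7 old wells beyond the line lie among or below the young ones.

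Gene by gene, 45 of the 49 were found in a larger share of young wells and 2 in a larger share of old wells. With wells of at least 1000 genes alone, these numbers were 33 and 13, with 3 equal. The median share of wells with a proteasome gene was 3.23% in old wells and 23.4% in young wells. Over the 3852 genes found in at least 10% of all wells, the medians were 6.45% in old wells and 26.6% in young wells. Most wells were young and held more genes, so that filter favours genes found in young wells and in part sets the gap of this background. The proteasome genes were not filtered in this way. Whether the gap between ages is particular to them was not tested. Intervals on shares below are exact Clopper-Pearson 95% intervals and cover counting error between wells only.

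Within the young wells, core genes were found most often, with a median share of 32.8% over the 14 genes, beside 25% for the base, 23.4% for the activators, 21.9% for the lid, 4.69% for the assembly chaperones and 3.12% for the immune genes; the inhibitor was at 1.56%. Psma3 was found in 8 of 31 old wells (25.8%, interval 11.9 to 44.6%) and in 41 of 64 young wells (64.1%, interval 51.1 to 75.7%), the most of any proteasome gene, with the limit that its copy Gm13835 was found in 33 of 64 young wells. Psmb6 was found in 3 of 31 old wells (9.68%, interval 2.04 to 25.8%) and 34 of 64 young wells (53.1%, interval 40.2 to 65.7%). Its immune partner Psmb9 was found in 0 of 31 old wells and 1 of 64 young wells (1.56%, interval 0.0400 to 8.40%). Psmb5 was found in 1 of 31 old wells (3.23%, interval 0.0820 to 16.7%) and 11 of 64 young wells (17.2%, interval 8.90 to 28.7%), and its partner Psmb8 in 0 of 31 old wells and 7 of 64 young wells (10.9%, interval 4.51 to 21.2%). Psmb7 was found in 0 of 31 old wells and 16 of 64 young wells (25%, interval 15.02 to 37.4%), and its partner Psmb10 in 0 of 31 old wells and 2 of 64 young wells (3.12%, interval 0.381 to 10.8%). So in young wells each immune gene was found less often than the gene it replaces, and the intervals are apart for Psmb6 with Psmb9 and for Psmb7 with Psmb10. With 3 wells as the limit that a count of 0 allows, each 0 of 31 covers shares of up to 9.68% of old wells in which the gene would be found. It sets no limit on cells expressing the gene, since most old wells held few genes of any kind.

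An immune gene was found in 10 of 64 young wells and a constitutive catalytic gene in 41, with both in 7. The 3 immune genes took 4.85% of the summed TPM of the 6 catalytic genes over the young wells, against a mean of 23.6% in the young bulk libraries. Ptprc, which marks all leukocytes and was above 0 in all 8 bulk libraries, was found in 0 of 31 old wells and 0 of 64 young wells. Pax7 was found in 6 of 31 old wells and 39 of 64 young wells, and Myf5 in 10 of 31 old wells and 51 of 64 young wells. By the same limit of 3 wells, a count of 0 in 64 wells allows a share of up to 4.69% of wells in which Ptprc would be found. Bulk libraries and wells were made in different ways and from different mice, and what sets the immune shares apart was not tested.

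The activators and the rarer genes were also counted in wells. Psme1 was found in 2 of 31 old wells (6.45%, interval 0.791 to 21.4%) and 17 of 64 young wells (26.6%, interval 16.3 to 39.1%). Psme4 was found in 1 of 31 old wells and 18 of 64 young wells, and Psme3 in 0 of 31 old wells and 6 of 64 young wells. Psmf1 was found in 1 of 31 old wells and 1 of 64 young wells, and Psmg1 in 0 of 31 old wells and 1 of 64 young wells. Psmg4, at 0 in 7 of 8 bulk libraries, was found in 2 of 31 old wells and 10 of 64 young wells (15.6%, interval 7.76 to 26.9%). The tissue-specific Psma8 and Psmb11 were found in 0 of 31 old wells and 0 of 64 young wells.

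Levels in young wells and young bulk libraries ranked the genes differently. Over the 49 genes, log2(mean TPM + 1) in the 64 wells and the 3 libraries correlated at r = 0.545 and rho = 0.517, a description across genes, which are not independent replicates. Psmb6 led in wells, with a mean of 87.1 TPM, and was number 21 in young bulk, with 24.9 TPM. Psme1 led in young bulk, with 118 TPM, and was number 9 in wells, with 42.9 TPM. Psma4 was number 2 in young bulk, with 96.5 TPM, and number 17 in wells, with 28.2 TPM. Psmb8, Psmb9 and Psmb10 were in the lower part of both orders, at numbers 45, 40 and 37 in young bulk and 40, 45 and 47 in wells.

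**Figure D5:**
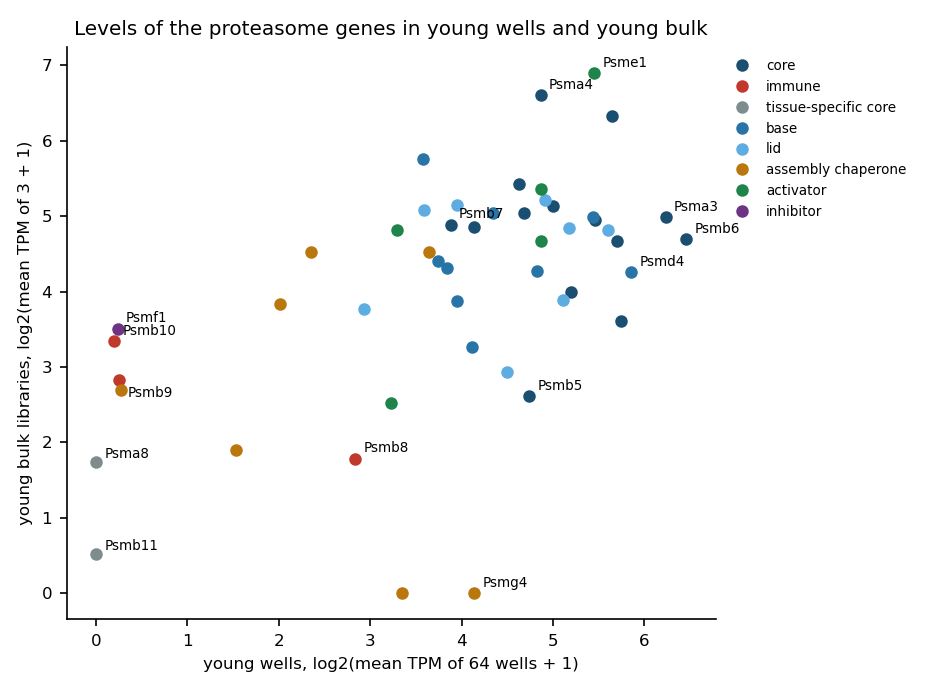
Mean level of each of the 49 proteasome genes in the 64 young wells (horizontal axis) and in the 3 young bulk libraries (vertical axis), both as log2(mean TPM + 1), coloured by role. Psme1 and Psma4 lie at the top, Psmb6 and Psma3 at the right, and Psmf1, Psmb9 and Psmb10 at the left.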

How the data were processed

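For bulk libraries, per the labels, a Qiagen column kit and NuGEN amplification were used before sequencing of single reads of 75 bases. STAR and mm10 are named in the submitters' processing notes. The version, annotation, strandedness and quantification tool were not given in the sources used here. Both tables hold TPM computed and deposited by the authors, and bulk library totals lay between 999999.2 and 1000000.9. TPM keeps no depth, so precision rests on the spread between libraries.

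The bulk mice were separate animals according to the design text. The 22492 genes averaging 1 TPM or more over the 8 libraries were tested with limma 3.58.1 (R 4.3.3) on log2(TPM + 1), pseudocount 1, all 8 libraries fitted together with a mean per age, an intensity trend and Benjamini-Hochberg adjustment. The test was checked on simulated data. Replicate numbers were not taken as pairs.

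In wells a gene counts as found at 1 TPM or more. Near-identical stretches were searched with blastn 2.17.0 in GENCODE vM21 transcripts, positions are from that annotation and promoter windows from RefSeq. Other tools were Python 3.11.15 with pandas 2.3.3, matplotlib 3.10.9, scipy 1.17.1 and numpy 2.4.6. Named by rule were the immune and constitutive catalytic genes, the activators and the inhibitor, the highest and lowest gene of each role, every proteasome gene with an unadjusted p under 0.05, and, of the other lists, such genes in old against young plus Irf1, Nlrc5, Nfe2l1, Nfe2l2, Tap1, B2m and Pomp; Psma1, Psma3, Psma5, Psmd7, Psmd14, Psmg2 and Psme2b were named after their values were seen. Some genes that the rule names are not reported here. The members and lists were chosen with earlier results of these data known. Alternatives covered the pseudocount, the filter, scaling, the groups fitted, a replicate block, each library left out and copies added to their gene.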

Additional observations from a re-analysis of the deposited data

How the results depend on the processing

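In old against young libraries, 0 proteasome genes passed the adjusted threshold of limma in any of the 19 fits, the lowest adjusted p of a proteasome gene being 0.179; at an unadjusted p under 0.05 the count of 4 became 3 with a pseudocount of 0.1, 5 with quantile normalization, 1 where only genes above 0 in all 8 libraries were tested (29 proteasome genes) and 1 where only the 2 groups compared were fitted, and ranged from 1 to 4 with 1 library left out. Deviations of same-numbered libraries from their group means correlated at r = -0.012 to 0.005, so the numbers were not read as pairs; with a replicate block the count stayed at 4 at an unadjusted p and at 0 after adjustment, with no call gained or lost after adjustment. In the other comparisons, where each group kept at least 2 libraries, Psmc1 alone passed, in old against middle-aged libraries with a pseudocount of 0.1 (limma adjusted p = 0.0433). Fits without 1 middle-aged library leave a lone library in that group, which is assumed to vary like the other groups, and their calls are not given. Shares of all genes called were computed for the main fit alone. Counts of proteasome genes in the other fits therefore stand without a background and are not read as results about these genes. The median difference of the core genes, -0.20, ranged from -0.41 to 0.12 with 1 library left out and was above 0 without old library 1; that of the base, -0.05, ranged from -0.20 to 0.17, and that of all members from -0.07 to 0.18. The median of the assembly chaperones, 1.09, was 2.11 with a pseudocount of 0.1. The median of the immune genes ranged from 0.21 to 2.08, that of the lid from -0.53 to -0.08, that of the assembly chaperones from 0.91 to 1.64 and that of the activators from 0.02 to 0.42. The immune share of the catalytic genes with 1 library left out ranged from 21.2 to 24.9% in young, 23 to 25.6% in middle-aged and 21.3 to 33.4% in old libraries. The median share of wells with a proteasome gene was 3.23% in old and 17.2% in young wells at 5 TPM, and 14.3% in old and 27.8% in young wells with at least 1000 genes. Of the 9 single genes followed through the alternatives, Psma7, Psmb5, Psmg1 and Psmd9 had an unadjusted p under 0.05 in this same comparison. Refits that changed only the filter, the groups fitted or a middle-aged library left out could not move a difference of old minus young. The replicate block left these differences unchanged as well, and adding copies could move that of Psme2 alone among the 9. With these limits, which make a kept sign no separate support, the 9 genes kept their sign in all 154 refits. Their sizes moved more: with 1 library left out, the difference ranged from 0.98 to 3.14 for Psma7, 2.34 to 4.35 for Psmb5, 0.21 to 2.33 for Psmb8, 0.87 to 3.18 for Psmb9, -2.20 to -0.09 for Psmb10, -3.13 to -1.50 for Psmd9, 0.15 to 0.37 for Psme1, 0.37 to 2.36 for Psme2 and 2.26 to 4.32 for Psmg1. Adding copies to their gene was chosen after seeing the data. The causes of these shifts were not tested. With 2 or 3 libraries an age, intervals in bulk were wide.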
